A study of Mus musculus with 6 samples.

Results

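The genes described here are those of Sonic hedgehog signalling: the ligand Shh, the receptor Ptch1, the signal transducer Smo, the transcription factors Gli1, Gli2 and Gli3, the ligand-binding antagonist Hhip, and the co-receptors Gas1 and Boc. They were taken from the count tables by gene name, 9 of the 55471 genes counted, and each had 1 matching row. RNA was sequenced from the rostral-most piece of the telencephalic primordium, dissected from E11.5 embryos, in 3 control and 3 Rx-Dicer samples. Both genotypes were homozygous for a floxed Dicer allele (Dicer F/F), kept on a C57BL/6 background. The controls had no Cre and were labelled WT. The Rx-Dicer samples also carried Cre from the Rx3-Cre line, kept on a CD1 background, which the study describes as recombining early in the forebrain and more in rostral and ventral than in neocortical telencephalon. Cells outside the recombined territory kept Dicer, which releases mature miRNAs from their hairpin precursors. Whether a library held 1 embryo or a pool is not stated in the labels, so the p-values below measure only the spread between these samples.

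Hedgehog ligands bind Ptch1, which otherwise holds Smo inactive. Active Smo moves into the primary cilium, where Gli2 and Gli3 are then converted to activators instead of repressors, and Gli1 and Ptch1 are themselves transcribed in response, so that they serve as readouts of the pathway. Gas1, Boc and Cdon present the ligand to Ptch1, whereas Hhip and Ptch1 itself sequester it. In the embryonic forebrain Shh comes from the prechordal plate, the hypothalamus, the preoptic area and the medial ganglionic eminence, and it sets up ventral against dorsal identity, partly by opposing the Gli3 repressor.

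Of the 9 genes, Shh alone passed the test. It rose 8.81-fold in Rx-Dicer samples, from a very low level. Ptch1 and Gli1 had higher means in Rx-Dicer samples and did not pass. The Smo, Gli2 and Gli3 levels differed by at most 1.10-fold between the genotypes, and Gas1, Boc and Hhip had lower means without passing the test. All 9 genes were tested by DESeq2, which counts a gene as changed at an adjusted p under 0.05 with a log2 fold change of over 0.32 in either direction. It called 2.93% of the 17128 genes tested, 1.75% as higher and 1.18% as lower. Of the 9 genes, 3 had an unadjusted p under 0.05, beside 13.1% of all genes tested.

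Shh (chr5:28456815-28467256, minus strand, GRCm38, ENSMUSG00000002633) had 15, 33 and 51 reads in the controls and 131, 559 and 211 in Rx-Dicer samples 1 to 3. Scaled by library, these were 18.3, 33.6 and 47.9 normalised counts in controls against 112, 569.5 and 201. Every Rx-Dicer library lay above every control, and the library labelled Rx-Dicer 2 stood highest. Both count files of each library showed the same order of libraries, with 5, 12 and 24 reads in the first control files and 63, 286 and 95 in the first Rx-Dicer files. The second files had 10, 21 and 27 control reads and 68, 273 and 116 Rx-Dicer reads. The log2 fold change was 3.14 ± 0.77 (SE), with a 95% interval of 3.08 to 25.2-fold and a DESeq2 adjusted p of 0.00518. edgeR's quasi-likelihood test gave 3.13 with an adjusted p of 0.148, so the call rests on the choice of test. It was also lost without control 2, where the value was 3.15 and the DESeq2 adjusted p 0.0719.

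The targeted gene bears on how the library labelled Rx-Dicer 2 is read. For Dicer1 the controls had 6355, 7070 and 6270 normalised counts, and the Rx-Dicer libraries 4777, 7002 and 4644. At 7002, the library labelled Rx-Dicer 2 lay within the control range, and the other Rx-Dicer libraries lay below it. Counts per gene include exons outside the floxed segment, so this total checks the deletion only in part. Without that library, Shh still rose, by 2.23 on the log2 scale with a DESeq2 adjusted p of 5.23e-04, and it was again the one gene of the 9 that passed. In bulk tissue, more cells with Shh transcripts and more transcripts per cell cannot be told apart.

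**Figure D1:**
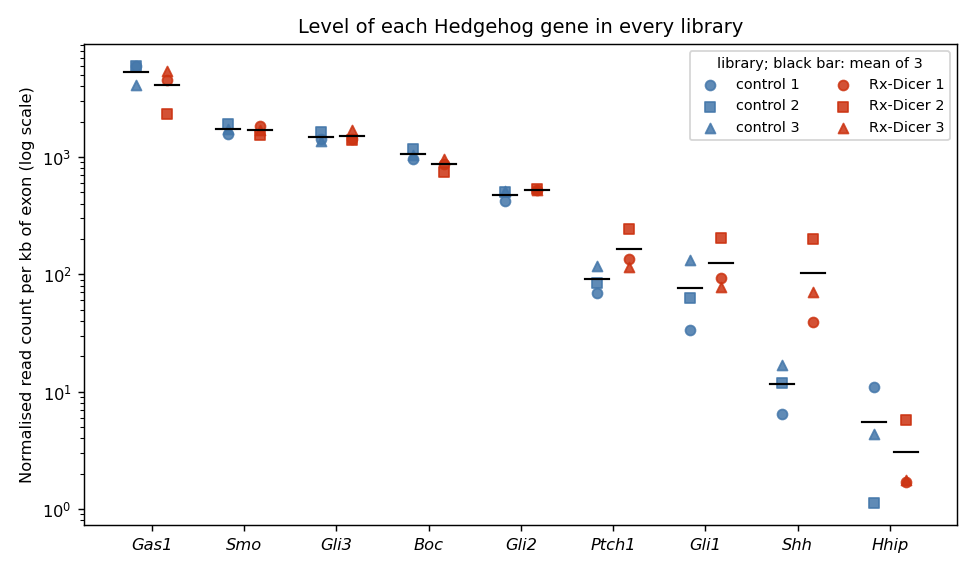
Level of the 9 Hedgehog genes in every library, as normalised read count per kilobase of exon on a log scale, ordered by the control mean; blue symbols are controls, red symbols Rx-Dicer samples, symbol shapes are replicate numbers, and black bars are means of 3. Shh is the gene whose Rx-Dicer libraries all lie well above its controls, and Gas1, Smo, Gli3, Boc and Gli2 lie more than a log unit above Shh in controls.

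Because Dicer makes mature miRNAs, the 3′ UTRs of these genes were searched for words that match miRNA seeds (bases 2 to 8). The 3 mature miRNAs below come from the RefSeq table for GRCm38.p6. They are shown because let-7 is the family the study centres on, miR-9 was among those with matches in 1 of these genes alone, and miR-7 had matches in 4. Capitals mark the seed.
let-7a-5p: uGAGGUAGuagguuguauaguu
miR-9-5p: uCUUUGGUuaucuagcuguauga
miR-7a-5p: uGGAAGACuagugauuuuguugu

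The word CTACCTC, which pairs with the let-7 seed, was in the longest annotated 3′ UTR of 9.02% of 21006 genes and in none of the 9. ACCAAAG, the match to miR-9, was in 12.2% of genes and, among the 9, in Hhip. GTCTTCC, the match to miR-7, was in 11.9% of genes and in Gli3, Hhip (4 times), Gas1 and Boc. Hhip also held matches to miR-92a, miR-125b, miR-130a and miR-181a, and no other member did. Shh, Ptch1, Smo, Gli1 and Gli2 held no match to the seeds of 12 miRNAs searched. Their 3′ UTRs were 1040, 3205, 1080, 165 and 1653 bases long, beside a median of 960.5 over all genes, and that of Hhip was 6480 bases, longer than 98.3% of genes. Only the sense strand of the transcript was searched, and a match describes letters in a window and is not evidence of a site in use. Levels of the miRNAs themselves were not analysed here. The study reported few mature miRNAs as significantly lower at this stage, most of them of the let-7 family. By in situ hybridisation at later embryonic stages, it also described miR-9 as strongly reduced in the rostral telencephalon of these mutants.

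The miR-7 matches of Gli3, Gas1 and Boc and the miR-9 matches of Hhip are shown with 11 bases on each side, so that they can be set beside the values below. Capitals mark the 7 bases that pair with the seed, written 5′ to 3′ along the transcript (GRCm38).
Gli3, miR-7, chr13:15726949-15726977, plus strand: ggggaggaactGTCTTCCatttcagtttg
Gas1, miR-7, chr13:60174910-60174938, minus strand: cccctatcaggGTCTTCCaccctggtacg
Boc, miR-7, chr16:44485050-44485078, minus strand: ataaatgtttaGTCTTCCttgtaaccttc
Hhip, miR-9, chr8:79968483-79968511, minus strand: agctagttcctACCAAAGtgatgaccatc
Hhip, miR-9, chr8:79968344-79968372, minus strand: cagagaacacaACCAAAGttctatgccca
None of these 4 genes was called higher in Rx-Dicer samples, beside 1.75% of all genes tested, so this count says little about the matches.

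The receptor and its antagonist were examined next. Ptch1 (chr13:63508328-63573598, minus strand, ENSMUSG00000021466), the receptor and a transcriptional target of the pathway, had 978, 1207 and 1678 normalised counts in controls and 1911, 3462 and 1632 in Rx-Dicer samples. The genotypes overlapped, because Rx-Dicer 3 lay below control 3, and the library labelled Rx-Dicer 2 was again highest. The log2 fold change was 0.86 ± 0.42, with a DESeq2 adjusted p of 0.345 and a 95% interval of 1.02 to 3.21-fold. The study named Ptch1, with Shh, among the genes it found at increased levels, whereas Ptch1 did not pass the test here. Single libraries moved Ptch1 across the threshold: it passed without Rx-Dicer 3 (1.06, adjusted p 0.0300) and without control 3 (1.10, adjusted p 0.0192), and its change was 0.46 without the library labelled Rx-Dicer 2. Hhip (chr8:79965851-80058006, minus strand, ENSMUSG00000064325), a membrane protein that binds the ligand and lowers signalling, was the scarcest of the 9. It had 82, 10 and 42 reads in controls and 18, 51 and 17 in Rx-Dicer samples, or 100.2, 10.2 and 39.5 against 15.4, 52.0 and 16.2 normalised counts. The groups overlapped fully, with control 1 highest and control 2 lowest, and the 95% interval of the change ran from 0.213 to 1.46-fold. Its log2 fold change of -0.84 ± 0.71 became 0.16 without control 1.

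Of the co-receptors, Gas1 (chr13:60174405-60177365, minus strand, ENSMUSG00000052957), a GPI-anchored protein that helps the ligand reach Ptch1, had 17601, 17701 and 12168 normalised counts in controls and 13439, 6858 and 15990 in Rx-Dicer samples. The lowest values were those of the library labelled Rx-Dicer 2 and, among controls, of control 3, the same libraries in which Shh, Ptch1 and Gli1 were highest within their genotype. Its log2 fold change was -0.39 ± 0.25 with a DESeq2 adjusted p of 0.570, and it shrank to -0.10 without the library labelled Rx-Dicer 2. Boc (chr16:44485049-44558897, minus strand, ENSMUSG00000022687), an immunoglobulin-superfamily co-receptor, had 4236, 5178 and 4626 normalised counts in controls and 3894, 3345 and 4300 in Rx-Dicer samples. Rx-Dicer 3 lay above control 1, so the groups overlapped. The log2 fold change of Boc was -0.28 ± 0.14, with a 95% interval of 0.680 to 0.993-fold and a DESeq2 adjusted p of 0.353.

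Smo (chr6:29735503-29761365, plus strand, ENSMUSG00000001761), the membrane protein that passes the signal on, had 8758, 10774 and 9725 normalised counts in controls and 10379, 8709 and 9584 in Rx-Dicer samples. The ranges overlapped, and the 95% interval of the change was 0.823 to 1.17-fold. Gli3 (chr13:15463235-15730026, plus strand, ENSMUSG00000021318), which acts mainly as a repressor, had 13620, 15710 and 13218 normalised counts in controls and 13547, 13436 and 16358 in Rx-Dicer samples. It too overlapped, with an interval of 0.852 to 1.22-fold. Gli2 (chr1:118834132-119053619, minus strand, ENSMUSG00000048402), the main activator, had 2878, 3484 and 3496 normalised counts in controls and 3582, 3666 and 3582 in Rx-Dicer samples. Its Rx-Dicer values all lay above its controls, but by 1.10-fold on the fitted scale, with an interval of 0.929 to 1.30-fold and a DESeq2 adjusted p of 0.770. Gli2 and Shh were the 2 members whose groups did not overlap, both higher in Rx-Dicer samples, beside 8.55% of all genes tested in that direction and 19.3% in either.

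Gli1 (chr10:127329882-127341974, minus strand, ENSMUSG00000025407), an activator that is transcribed in response to the pathway, had 167, 314 and 664 normalised counts in controls and 466, 1009 and 387 in Rx-Dicer samples. Control 3 lay above 2 of the Rx-Dicer libraries, so the spread within each genotype was as wide as the difference between them. The log2 fold change was 0.70 ± 0.70, with a 95% interval of 0.626 to 4.21-fold and a DESeq2 adjusted p of 0.803. It was 0.16 without the library labelled Rx-Dicer 2 and 1.37 without control 3.

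**Figure D2:**
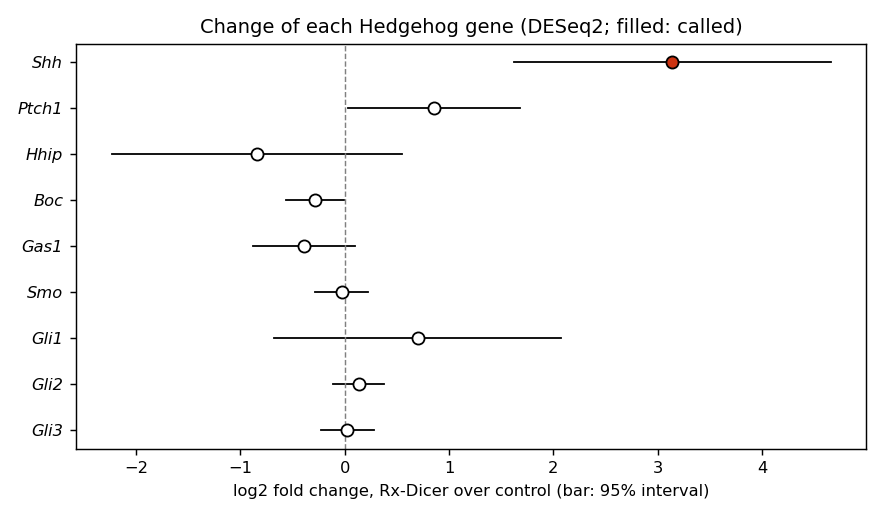
Change of each Hedgehog gene between the genotypes, as log2 fold change of Rx-Dicer over control with its 95% interval (bars), ordered from ligand through receptors to Gli factors. The filled point, Shh at 3.14, is the one called by DESeq2, and the intervals of Hhip and Gli1 are the widest of those not called, while those of Smo, Gli2 and Gli3 lie close around 0.

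Levels were compared between genes as normalised counts per kilobase of exon. In both genotypes the order was Gas1, Smo, Gli3, Boc, Gli2, Ptch1, Gli1, Shh and Hhip, from highest to lowest. Control means per kilobase were 5344 for Gas1, 1735 for Smo, 1479 for Gli3, 1051 for Boc and 478 for Gli2, and then 90.8 for Ptch1, 76.4 for Gli1, 11.7 for Shh and 5.50 for Hhip. Smo and Gli3, Ptch1 and Gli1, and Shh and Hhip were neighbours in this order whose control values overlapped. The transducer and repressor of the pathway were thus present at levels well above those of its ligand and of its transcriptional readouts. In Rx-Dicer samples Shh reached a mean of 103 per kilobase, beside 124 for Gli1, with overlapping values, and its mean was 33.7 times that of Hhip, compared with 2.12 times in controls. Single libraries weighed on these means: the control ratio was 5.24 without control 1, and the Rx-Dicer mean of Shh was 55.0 per kilobase without the library labelled Rx-Dicer 2, beside 85.3 for Gli1.

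Ratios of 2 genes within a library take out differences in scaling. The ratio of Shh to Ptch1 per kilobase was 0.0933, 0.139 and 0.142 in controls, against 0.293, 0.820 and 0.612 in Rx-Dicer samples. All Rx-Dicer libraries lay above the controls, and the two-sided exact permutation p was 0.1, the smallest that 3 against 3 samples allow. The ratio of Gli1 to Gli3, an activator transcribed in response to the pathway over its main repressor, was 0.0236, 0.0383 and 0.0965 in controls, against 0.0660, 0.144 and 0.0454 in Rx-Dicer samples, which overlapped (exact permutation p = 0.5). Of the 5 ratios compared, those of Gli1 to Gli2 and of Gli3 to Gli2 also gave an exact p of 0.5 and that of Ptch1 to Smo 0.2. Every adjusted value over the 5 ratios was 0.5.

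The libraries of 1 genotype were not alike in these genes. Shh, Ptch1, Gli1 and Gli2 each had their lowest value in control 1, their highest control value in control 3 and their highest value of all in the library labelled Rx-Dicer 2. Gas1 and Cdon, another co-receptor (7423, 8246 and 6104 normalised counts in controls, 7866, 4546 and 6856 in Rx-Dicer samples), ran the other way, lowest in the library labelled Rx-Dicer 2 and, among controls, in control 3. The summed level of 9 markers of the subpallium, the ventral telencephalon, was 3495, 4602 and 10687 normalised counts in controls and 4311, 15344 and 3110 in Rx-Dicer samples. It was thus highest in the same 2 libraries, while no gene of that list was called (1 of 9 had an unadjusted DESeq2 p under 0.05) and its median log2 fold change was 0.20. The list leaves out Nkx2-1, Lhx6 and Lhx8, given below, which mark the medial ganglionic eminence, also a part of the subpallium. In each of these genes all Rx-Dicer libraries lay above every control. The most abundant gene of the list, Dlx1, a homeobox factor of interneuron development, had 1157, 1568 and 3766 normalised counts in controls and 1269, 5161 and 980 in Rx-Dicer samples. Gsx1, a ventral progenitor factor and the gene of the list with the smallest p, had 12.2, 30.6 and 26.3 against 16.3, 114 and 71.3, a change of 1.54 ± 0.62 with a DESeq2 adjusted p of 0.183. Within each genotype the list was highest in the library where Ptch1 and Gli1 were highest and Gas1 lowest, and its part in their values was not tested. Rx-Dicer 3 had a subpallial sum below every control and Rx-Dicer 1 one within the control range, and both had Shh above every control. Ptch1 in Rx-Dicer 1 also lay above every control. In Rx-Dicer 3, Ptch1 and Gli1 lay above control 1 and control 2.

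**Figure D3:**
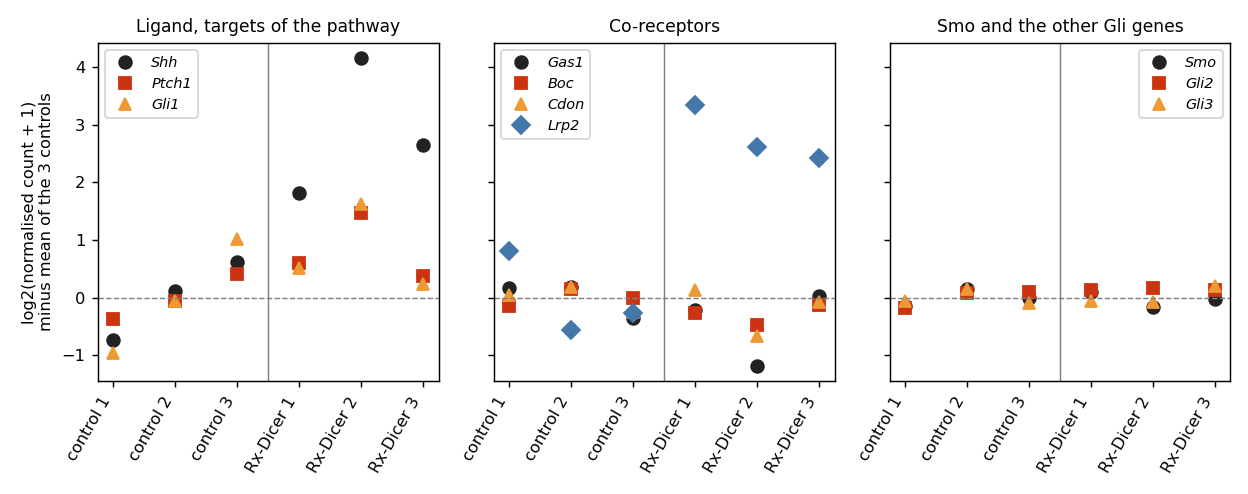
The 6 libraries side by side: each point is log2(normalised count + 1) of a gene minus its mean over the 3 controls, for the ligand and targets of the pathway (left), the co-receptors (middle), and Smo, Gli2 and Gli3 (right). The library labelled Rx-Dicer 2 is highest for Shh, Ptch1 and Gli1 and lowest for Gas1, Boc and Cdon, whereas Lrp2 is above its controls in all 3 Rx-Dicer libraries and Smo, Gli2 and Gli3 stay near 0.

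Beyond the 9 genes, 50 other genes of the pathway were examined in 4 groups, of which 49 were tested. DESeq2 called 3 higher and none lower, beside 1.75% and 1.18% of all genes tested, and 5 had an unadjusted p under 0.05. The median log2 fold change of those tested was 0.04, beside -0.00087 for all genes tested. Between the genotypes, 5 did not overlap with Rx-Dicer higher and 2 with Rx-Dicer lower (8.55% and 10.7% of all genes tested). Leaving out the library labelled Rx-Dicer 2 gave 2 called genes, and edgeR called 0, with 6 at an unadjusted p under 0.05.

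The call of largest size was a receptor. Lrp2, the endocytic receptor megalin that takes up Shh in the ventral forebrain, had 326, 126 and 155 normalised counts in controls and 1882, 1146 and 1003 in Rx-Dicer samples. No library overlapped, and Lrp2 rose by 2.73 ± 0.50 on the log2 scale (DESeq2 adjusted p 1.67e-05, edgeR 0.0719). The other 4 receptor genes, Cdon and the glypicans Gpc3, Gpc4 and Gpc6, did not pass. Among transcripts for cell-surface proteins that bind the ligand, Lrp2 was thus called higher, while Cdon stood at -0.18 ± 0.19 and Gpc6, with the smallest p of those not called, at 0.27 ± 0.16.

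Among 8 tested genes for the other ligands and for ligand release, none was called by DESeq2 or edgeR, and each tool gave 1 at an unadjusted p under 0.05. This was Scube3, whose product helps release lipid-modified ligand from cells, with 2372, 2169 and 3166 normalised counts in controls and 3677, 3517 and 3514 in Rx-Dicer samples. The groups did not overlap, and its log2 fold change was 0.47 ± 0.16 with a DESeq2 adjusted p of 0.0675. Of 23 genes between Smo and the Gli factors, DESeq2 called 2 and the median change was -0.02. Csnk1g1, a casein kinase 1 gene, had 1728, 1730 and 1565 normalised counts in controls and 2612, 2312 and 2285 in Rx-Dicer samples, and Spopl, a relative of the ubiquitin ligase adaptor Spop, had 795, 697 and 728 against 907, 1095 and 1052. They rose by 0.52 ± 0.12 (DESeq2 adjusted p 0.00280) and 0.46 ± 0.14 (0.0455), and neither gene overlapped. The call of Csnk1g1 held when any 1 sample was left out, whereas that of Spopl was lost without Rx-Dicer 2 (0.41, adjusted p 0.10), Rx-Dicer 3 (0.43, 0.129), control 2 (0.42, 0.231) or control 3 (0.45, 0.156). Mosmo, which lowers Smo at the membrane, was the nearest gene not called, at 0.27 ± 0.14. Of 13 genes of ciliary transport, none was called by either tool and 1 had an unadjusted p under 0.05 with each: Fuz, a planar polarity effector needed for cilia, with 840, 878 and 879 normalised counts in controls against 714, 675 and 696, a change of -0.32 ± 0.13 with a DESeq2 adjusted p of 0.191.

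**Figure D4:**
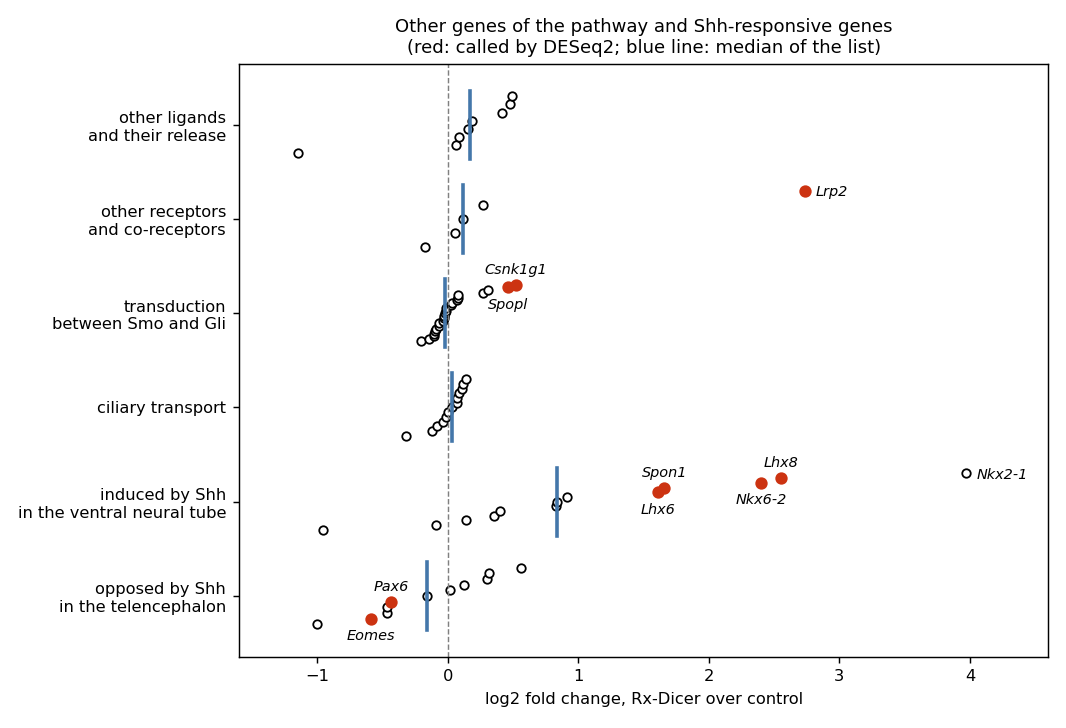
Log2 fold change, Rx-Dicer over control, of the other genes of the pathway and of genes that respond to Shh, 1 circle a gene, in rows by role. Red circles are called by DESeq2 and blue lines are the medians of each row. The called genes lie among receptors (Lrp2), between Smo and the Gli factors (Csnk1g1 and Spopl), and in the rows of genes induced or opposed by Shh. The induced row also holds the ventral markers Lhx6 and Lhx8.

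Genes known to be induced by Shh in the ventral neural tube were then counted, together with the ventral markers Lhx6 and Lhx8. Of these 17 genes, 13 were tested, 4 were called higher and none lower, 11 had a log2 fold change above 0, and the median was 0.84. Over all 17128 genes tested, 1.75% were called higher, 8539 had a log2 fold change above 0, and the median was -0.00087. Lhx6 and Lhx8 were among the 4 called. The list was drawn up with earlier results of these data known, so its share of called genes is no independent test. Spon1, a secreted protein of the floor plate, had 169, 160 and 228 normalised counts in controls and 605, 493 and 663 in Rx-Dicer samples, a rise of 1.66 ± 0.20 (DESeq2 adjusted p 1.19e-12, edgeR 0.0536). Lhx8, a factor of medial ganglionic eminence neurons, had 6.11, 25.5 and 29.1 against 77.2, 185 and 98.9, and Lhx6, which acts in the same lineage, 50.1, 41.8 and 51.7 against 159, 188 and 90.3. They rose by 2.55 ± 0.49 and 1.61 ± 0.34 (DESeq2 adjusted p 7.07e-05 and 4.40e-04). In none of these genes did the genotypes overlap, and each call held in DESeq2 when any 1 sample was left out.

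The called gene of this list with the fewest reads was Nkx6-2, a ventral progenitor factor, with 1.22, 9.17 and 33.8 normalised counts in controls and 35.2, 98.8 and 104 in Rx-Dicer samples. Rx-Dicer 1 barely exceeded control 3, and the rise of 2.40 ± 0.70 (DESeq2 adjusted p 0.0308) was not called without the library labelled Rx-Dicer 2 (2.22, adjusted p 0.281), control 1 (1.87, 0.109) or control 2 (2.17, 0.732), and it was 3.88 without control 3. Nkx2-1, a factor of the hypothalamus and medial ganglionic eminence that is induced by Shh and sustains Shh there, had 3.66, 51.9 and 192 normalised counts in controls and 682, 1882 and 1307 in Rx-Dicer samples. Its groups lay apart, yet its adjusted p of 0.0549 (DESeq2) missed the threshold at a log2 fold change of 3.97 ± 1.26, and its controls were far apart. In order of level, its libraries ranked exactly as those of Shh did.

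The opposite list held 12 genes that Shh opposes in the telencephalon, mostly of the pallium and dorsal midline. Of 11 tested, 2 were called lower and none higher, beside 1.18% and 1.75% of all genes tested. A log2 fold change above 0 was seen in 5, and the median change was -0.16. Genes of the dorsal midline were among those above 0 and not called, namely Wnt8b at 0.56 ± 1.04, Lmx1a at 0.32 ± 0.26, Msx1 at 0.30 ± 0.24 and Bmp4 at 0.12 ± 0.34. Pax6, a pallial progenitor factor, had 7210, 6927 and 6726 normalised counts in controls and 5064, 4749 and 5629 in Rx-Dicer samples. Eomes, which marks intermediate progenitors, had 5752, 5499 and 4111 against 3273, 3120 and 3835. They fell by 0.43 ± 0.12 and by 0.59 ± 0.16 on the log2 scale (DESeq2 adjusted p 0.0127 and 0.0137), and neither overlapped. Both calls were lost without control 2 (Pax6 -0.44, adjusted p 0.0553; Eomes -0.53, 0.166). That of Eomes was also lost without control 1 (-0.50, 0.0958), Rx-Dicer 1 (-0.56, 0.0640) or Rx-Dicer 2 (-0.52, 0.0813). Neurog2, a proneural factor of the pallium, had 6177, 6080 and 2903 against 3323, 1485 and 2752, overlapped, and did not pass, at 0.499-fold (95% interval 0.263 to 0.946). Over both lists, 6 of 24 tested genes were called, beside 2.93% of all genes tested, and without the library labelled Rx-Dicer 2 there were 4. Both lists are termed Shh-responsive below, although the first holds the ventral markers Lhx6 and Lhx8, which are among the 6 called. Both were drawn up with earlier results of these data known, so the count does not test a response to Shh. edgeR called 0 of 24, with 10 at an unadjusted p under 0.05.

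Markers of tissues that make Shh, or that the dissected piece could hold, were compared beside these values. Over all genes tested, 1.75% were called higher and 1.18% lower, to be read beside the counts of the lists below. Those of the telencephalic neuroepithelium, the labelled tissue, were abundant in every library, with a summed level of 146067 to 173080 normalised counts. Of 10 genes of the hypothalamus and preoptic area, 8 were tested, 3 were called higher and 1 lower, and their summed level was 1550 to 1950 normalised counts in controls and 3098 to 4740 in Rx-Dicer samples. Fezf1, its most abundant gene and a forebrain patterning factor, had 1618, 1276 and 1524 against 2043, 2646 and 2620 and rose by 0.73 ± 0.15 (DESeq2 adjusted p 5.19e-04). Otp, a neuroendocrine hypothalamic factor, had 2.44, 4.07 and 7.52 against 69.5, 14.3 and 67.5, and Hmx3 had 7.33, 0 and 5.64 against 48.9, 10.2 and 31.4. Both rose, by 3.40 ± 0.74 and 2.82 ± 0.88 (DESeq2 adjusted p 6.96e-04 and 0.0472). The call of Hmx3 was lost without control 1 (3.40, adjusted p 0.0637) or control 2 (2.23, 0.246), and DESeq2 gave it no adjusted p without Rx-Dicer 1, Rx-Dicer 3 or control 3. Pomc, a hypothalamic prohormone, had 161, 168 and 192 against 96.9, 102 and 107 and fell by 0.77 ± 0.23 (adjusted p 0.0357), a call lost without Rx-Dicer 1 (-0.73, 0.0631), control 2 (-0.79, 0.108) or control 3 (-0.69, 0.177). Fezf1 and Nkx2-1, which was not called, made up most of the summed level of these markers in every Rx-Dicer library. This list shares Nkx2-1 and Sim1 with the list of genes induced by Shh. It moved with Shh between the genotypes, although Otp and Hmx3 were lowest among Rx-Dicer samples in the library where Shh was highest, and its part in the Shh value was not tested.

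Of 7 genes of the floor plate, another source of Shh, the calls were Shh and Spon1 themselves, and 4 of the 7 also stand in the list of genes induced by Shh. The defining floor plate factors Foxa1, Foxa2 and Ferd3l were near 0, with 0 to 6.86 normalised counts in every library, and the sum of the list was 1192 to 3786 in controls and 2774 to 6235 in Rx-Dicer samples. Its most abundant gene, Ntn1, the guidance cue netrin 1, had 545, 1082 and 2827 against 1868, 4613 and 1416, which overlapped. Oral and nasal epithelium also makes Shh. Of 12 genes of surface, oral and nasal epithelium, 10 were tested, none was called higher and Krt15, a basal keratin with 152, 2.04 and 44.2 counts in controls and 1.71, 4.07 and 0.951 in Rx-Dicer samples, was called lower at -4.88 ± 1.51 (DESeq2 adjusted p 0.0446). Control 2 lay within the Rx-Dicer range. The change of Krt15 was -3.38 without control 1, with no adjusted p from DESeq2, and the call was lost without Rx-Dicer 1 (-4.72, 0.133), Rx-Dicer 2 (-5.62, 0.0624) or control 3 (-5.10, 0.140). Krt5, another basal keratin and the nearest gene not called, had 131, 5.09 and 196 against 18.0, 8.15 and 3.8. The sum of this list was 816 to 3812 in controls and 1417 to 2324 in Rx-Dicer samples, and its most abundant gene, Epcam, had 883, 341 and 373 against 785, 459 and 614. The sum was highest in control 1 and lowest in control 2, and its part in the Shh value was not tested.

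Markers of non-neural cells gave a mixed picture. Of 6 genes of microglia and macrophages, 3 were called higher, beside 1.75% of all genes tested. These were Cx3cr1, Csf1r and Fcgr1, by 2.26, 1.97 and 2.37-fold. The summed level of the list was 861 to 1049 normalised counts in controls and 1043 to 3171 in Rx-Dicer samples. The library labelled Rx-Dicer 2, highest in Shh, was within the control range of that sum. Cx3cr1, a chemokine receptor, had 283, 194 and 236 against 796, 282 and 531, and Csf1r, a growth factor receptor and the most abundant gene of the list, had 385, 275 and 322 against 938, 354 and 636, so both overlapped. Without Rx-Dicer 1 their log2 fold changes fell from 1.18 to 0.78 (adjusted p 0.17) and from 0.98 to 0.60 (0.300). Without other single samples, the call of Cx3cr1 was lost for Rx-Dicer 3, control 2 and control 3 (adjusted p 0.101, 0.190 and 0.0870), and Csf1r was called only when Rx-Dicer 2 was the sample left out, as was Fcgr1, an Fc receptor. Ptprc, the leukocyte antigen CD45, was the nearest gene not called, at 1.05 ± 0.43. Head mesenchyme, which in places responds to Shh, had sums of 35575 to 80517 in controls and 53790 to 69513 in Rx-Dicer samples. No gene of the mesenchymal, endothelial or erythroid lists was called by DESeq2 or edgeR, or had an unadjusted p under 0.05 with either. The smallest p of these lists belonged to Foxc1 (0.36 ± 0.25), Emcn (0.42 ± 0.21) and Hba-a1 (0.12 ± 0.54), and their most abundant genes, Col3a1, Cdh5 and Hbb-y, stood at 0.14 ± 0.23, 0.12 ± 0.43 and -0.11 ± 0.56. The globin genes have near-identical copies, so their counts are uncertain. The part of these cells in the values of the 9 genes was not tested.

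The protein-coding genes whose pattern was most like that of Shh over the 6 libraries were Arl5b, Pbrm1, Ralgapa1, Soat1, Wnk1, Gpr4, Slc26a2, Dpy19l4, Pdcd6ip and Usp49, in that order. Likeness was Pearson's r of log2(normalised count + 1), from 0.998 to 0.985, over 12707 genes with a mean of at least 50, of which 228 had r above 0.9. Spearman's rho was 1 for each but Gpr4, at 0.943, and r stayed between 0.958 and 0.998 without the libraries farthest from the median, control 1 and the library labelled Rx-Dicer 2. No p is given, because these genes were picked for their r. Their changes were far smaller than that of Shh: Arl5b, a small GTPase of Golgi transport, had 3661, 3818 and 3889 normalised counts in controls and 4180, 4665 and 4379 in Rx-Dicer samples, and the log2 fold changes of the 10 ran from 0.17 to 0.62.

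The nearest protein-coding genes on each side of Shh on chromosome 5 were not called. An antisense gene that overlaps Shh on the opposite strand, 9530036O11Rik, was not compared. Rbm33, an RNA-binding protein gene 37575 bases away, had 3837, 4834 and 4423 normalised counts in controls and 4254, 4881 and 4261 in Rx-Dicer samples, a log2 fold change of 0.03 ± 0.13. Rnf32, 728735 bases away on the other side, had 164, 111 and 147 against 91.8, 152 and 125, a change of -0.19 ± 0.28. Both overlapped between the genotypes and were not called (DESeq2 adjusted p 0.974 and 0.896). Whether the difference between the change of Shh and that of its neighbours exceeds their errors was not tested directly.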

How the data were processed

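Directional 100 bp paired-end libraries were made from total RNA of dissected tissue. The deposited files held raw read counts per Ensembl gene; the authors trimmed reads with Trim Galore, aligned them to GRCm38 with HISAT2 and counted them with HTSeq on the reverse strand, leaving ambiguous and multiply aligned reads uncounted. Each sample had 2 files, which differed by little more than sampling noise (chi-square per degree of freedom 1.13 to 1.52, against 22.5 to 32.6 between samples of a genotype), and were summed. Totals were 34471501 to 48373468 counts, and 24.9 to 31.0% of tallied reads lay on no gene row and were left out. A floor of 3 counts equals 0.0620 to 0.0870 CPM, covering counting error only.

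Genotypes were compared with DESeq2 1.42.0 (R 4.3.3; Wald test, median-of-ratios size factors, genotype only, Benjamini-Hochberg adjustment), the study's tool, on all genes. Intervals are 95% Wald intervals. edgeR 4.0.16 (quasi-likelihood, TMM, at least 10 counts in 3 samples) and the other alternatives are given at the end. Both tools were tested on simulated data, in which a larger share of DESeq2's calls than of edgeR's was wrong, above the 0.05 threshold. Positions, exon lengths and 3′ UTRs came from GENCODE M21 (55230 of 55471 identifiers matched). Overlapping genes on the same strand had a mean of at most 23.5 normalised counts. Genes, lists and tests were chosen with earlier results of these data known. Genes withheld from the lists are not reported here and entered no list count. Genes named were the 9, Dicer1, every called gene of the lists, the gene with the smallest p not called in a list, the most abundant gene of a marker list, the 10 most like Shh and its neighbours; Cdon, Gpc3, Gpc4, Sim1, Foxa1, Foxa2 and Ferd3l were named after their values were seen.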

Additional observations from a re-analysis of the deposited data

How the results depend on the processing

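In 15 other fits, Shh stayed higher in Rx-Dicer samples throughout. The test mattered most: edgeR called 8 genes against 502 by DESeq2 (2313 against 2239 at an unadjusted p under 0.05), 0 of the 9 Hedgehog genes, of which 3 had an unadjusted p under 0.05 with each tool, 0 of the pathway genes and 0 of the Shh-responsive genes. Its log2 fold change of Shh was 3.13, with an adjusted p of 0.148. Without independent filtering 322 genes were called. With genes under 10 counts in 3 samples removed beforehand, 2 of the 9 were called, since Ptch1 passed at 0.87 (adjusted p 0.0460). TMM or total-count scaling shifted the median gene by 0.00083 or 0.018 and changed no call among the 9.

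Leaving out 1 sample at a time gave 285 to 637 called genes, 0 to 2 of the 9, 2 to 4 pathway genes, and 3 to 9 Shh-responsive genes, fewest without control 2. The log2 fold change of Shh was 2.23 to 3.52 and that of Ptch1 0.46 to 1.10. Without control 2, Shh missed the threshold at 3.15 (adjusted p 0.0719), and without Rx-Dicer 3 or control 3 Ptch1 passed (1.06 and 1.10). Changes near 0 turned sign: Smo ran from -0.10 to 0.05 (0.04 without Rx-Dicer 2 and 0.049 without control 2), and Gli3 from -0.07 to 0.11 (-0.072 without Rx-Dicer 3, -0.0031 without control 1 and -0.02 without control 3). Hhip ran from -1.65 to 0.16, positive without control 1. Gli1 ran from 0.16 to 1.37, Gli2 from 0.05 to 0.18, Gas1 from -0.64 to -0.10 and Boc from -0.37 to -0.19, with no change of sign or call. Measured by the longest transcript, control levels per kilobase became 124 for Ptch1, 2581 for Smo and 1736 for Gli3, in the same order of genes.

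Replicate numbers recur in both genotypes, but samples with the same number did not deviate together (correlations of 0.29, -0.01 and -0.26, against -0.27 to 0.31 for other pairs), so the numbers were not taken as pairs. With the replicate number as a block, 314 genes were called and the Shh change was 2.92, still called, as were 2 pathway and 5 Shh-responsive genes. The calls of 6 list genes, Spopl, Pax6, Eomes, Hmx3, Pomc and Fcgr1, were lost with the block. Of 20 list genes called, 19 were not called by edgeR (Krt15 was not tested there), 12 lost the call when some 1 sample was left out, and 7 (Lrp2, Csnk1g1, Spon1, Lhx6, Lhx8, Six3 and Fezf1) kept it in every DESeq2 alternative. Causes of these shifts were not tested. Depth limits Hhip and the lowest Shh libraries, with 10 to 82 and 15 to 51 reads.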

Other observations

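Genes of neighbouring forebrain territories also differed. Whether they respond to Shh in these samples was not tested. Of 9 genes of the eye field, 6 were tested and 1 was called higher, beside 1.75% of all genes tested. This was Vax1, a factor of the optic stalk and ventral forebrain, with 176, 225 and 312 normalised counts in controls and 429, 662 and 420 in Rx-Dicer samples. It rose by 1.08 ± 0.25 on the log2 scale (DESeq2 adjusted p 0.00261) and did not overlap, and the call was lost without Rx-Dicer 2 (0.84, 0.0510) or control 2 (1.04, 0.0660). Pax2, a factor of the optic stalk, had 67.2, 1.02 and 7.52 against 145, 79.5 and 87.5 and was not called. Dct, a pigment enzyme and the most abundant gene of that list, had 817, 783 and 353 against 676, 68.3 and 575.

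Of 10 markers of the telencephalic neuroepithelium, which define the dissected tissue and were present in every library (summed levels of 159560 to 173080 normalised counts in controls and 146067 to 168645 in Rx-Dicer samples), Six3, a factor of the rostral forebrain, had 1357, 684 and 1048 against 2177, 3018 and 2247. Six3 rose by 1.27 ± 0.22 (DESeq2 adjusted p 6.27e-06), without overlap. Of the 10 markers, 1 was called higher and 2 lower, beside 1.75% and 1.18% of all genes tested. The lower ones were Fabp7 and Pax6, the values of Pax6 being given above. Fabp7, a radial glial fatty acid binding protein, had 18594, 11207 and 10098 against 9718, 6391 and 7473 and fell by 0.76 ± 0.22 (adjusted p 0.0307). That call of Fabp7 was lost without control 1 (-0.44, 0.243), control 2 (-0.87, 0.0820), Rx-Dicer 2 (-0.63, 0.226) or Rx-Dicer 3 (-0.72, 0.194). Vim, the most abundant gene of the list, was not called at 0.17 ± 0.11, nor was Nes, with the smallest p of those not called, at -0.38 ± 0.17.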
